A study of Mus musculus with 11 samples.

Results

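Immediate early genes and heat shock genes were followed through sorted alveolar macrophages, the resident phagocytes of the air spaces, from newborn mice. They were chosen by name, as genes known to be induced when tissue is dissociated or cells are heated, and not by a threshold on their values. Earlier results of these data were known when they were chosen. The 37 genes are 23 immediate early genes and 14 heat shock genes, and each matched 1 of the 57180 Ensembl identifiers in the count table. All 37 passed the filter on low counts, as did 19948 genes in all.

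The cells came from lungs of C57BL/6 wild-type pups that were homogenized on postnatal day 7, and they were sorted by flow cytometry for bulk RNA-seq. Exposed pups had breathed oxygen at an FiO2 of 95% (hyperoxia) on postnatal days 1 to 5, and unexposed pups stayed in normoxia. The libraries are 2 of hyperoxia males (HM2 and HM3), 3 of hyperoxia females (HF1 to HF3), 3 of normoxia males (NM1 to NM3) and 3 of normoxia females (NF1 to NF3). The labels do not say whether libraries of a group come from separate or pooled pups, so each p-value reflects how far these libraries differ within a group. All 4 groups share strain, genotype, age, homogenization and sort, so RNA present in the pup and RNA made during the preparation cannot be told apart. The sort came after the exposure had ended.

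Immediate early genes are transcribed within minutes of a signal, without new protein synthesis, through factors such as SRF, ELK1 and CREB that already sit at their promoters. Many of their products are transcription factors, and others, such as DUSP1 and ZFP36, shut the signal off by dephosphorylating MAP kinases or by degrading AU-rich mRNAs. Heat shock genes are driven by HSF1, which is freed from chaperones when unfolded protein builds up and binds heat shock elements, inverted repeats of the unit nGAAn. Members of both sets are known to be switched on in freshly isolated cells by tissue digestion and handling.

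No gene of the 37 passed the test for hyperoxia against normoxia over both sexes, by the quasi-likelihood test of edgeR, adjusted after Benjamini and Hochberg over all genes tested, against 0.707% of all genes tested. At an unadjusted p under 0.05 there were 3, or 8.11% of the 37, close to the 8.13% of all genes. These 3 were the nuclear receptor gene Nr4a1 and the cytokine signalling inhibitor Socs3, with higher means in hyperoxia, and the small Maf factor Maff, with a lower one. DESeq2 called Nr4a1 and Maff, 2 of the 36 to which it gave an adjusted p, as it called 3.24% of all genes with one. The median log2 fold change of the 37 genes was -0.021, beside -0.031 over all genes tested, and 17 of the 37 (45.9%) were above 0, the same percentage as of all genes. The SD of the log2 fold changes was 0.31 over the 37 and 0.56 over all genes tested. With library totals in place of TMM, the medians were 0.13 over the 37 and 0.12 over all genes.

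Promoter sequences are shown for genes whose values are described at length below, so that the elements of both programmes can be seen. They are RefSeq windows of the build GRCm38.p6, whereas the submitters' processing notes name mm39, and the coordinates given are of GRCm38.p6. Windows were found for 29 of the 37 genes. Each line holds the 250 bases upstream of the transcript start, 5′ to 3′ on the gene's strand. Capitals mark heat shock element matches (GAANNTTC or TTCNNGAA, also where a further GAA or TTC unit follows after NN), the cyclic AMP response element TGACGTCA and its core TGACG, all searched on both strands. The core is contained in the full element, and the units of the heat shock element overlap each other.
Nr4a1, plus strand, chr15:101266596-101266845: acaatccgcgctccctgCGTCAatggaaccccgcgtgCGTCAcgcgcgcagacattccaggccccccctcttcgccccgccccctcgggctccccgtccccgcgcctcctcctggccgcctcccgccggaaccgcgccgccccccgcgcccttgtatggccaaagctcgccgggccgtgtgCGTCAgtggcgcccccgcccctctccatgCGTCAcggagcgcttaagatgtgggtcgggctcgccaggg
Maff, the second of its windows, plus strand, chr15:79347270-79347519: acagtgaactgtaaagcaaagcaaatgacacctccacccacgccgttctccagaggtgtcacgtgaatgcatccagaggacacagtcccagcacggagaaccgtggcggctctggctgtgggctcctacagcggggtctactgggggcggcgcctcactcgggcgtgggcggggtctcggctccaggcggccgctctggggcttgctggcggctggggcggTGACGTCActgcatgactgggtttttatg
Fos, plus strand, chr12:85473640-85473889: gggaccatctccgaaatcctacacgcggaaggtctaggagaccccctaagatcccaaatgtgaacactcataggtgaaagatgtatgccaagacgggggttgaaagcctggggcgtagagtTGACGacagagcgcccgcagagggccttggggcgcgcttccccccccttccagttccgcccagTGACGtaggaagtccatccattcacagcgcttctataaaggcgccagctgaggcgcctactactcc
Hspa1a, minus strand, chr17:34972157-34972406: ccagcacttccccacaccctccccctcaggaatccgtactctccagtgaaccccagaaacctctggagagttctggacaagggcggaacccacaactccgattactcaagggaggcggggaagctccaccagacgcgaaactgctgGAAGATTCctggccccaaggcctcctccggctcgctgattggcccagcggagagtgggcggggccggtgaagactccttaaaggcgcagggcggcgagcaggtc
Hspa1b, minus strand, chr17:34959239-34959488: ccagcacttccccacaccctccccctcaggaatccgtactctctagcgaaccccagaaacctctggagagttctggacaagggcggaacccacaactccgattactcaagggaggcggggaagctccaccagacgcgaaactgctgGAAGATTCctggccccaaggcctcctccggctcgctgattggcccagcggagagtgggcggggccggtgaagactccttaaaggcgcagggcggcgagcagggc
Hspb1, plus strand, chr5:135887669-135887918: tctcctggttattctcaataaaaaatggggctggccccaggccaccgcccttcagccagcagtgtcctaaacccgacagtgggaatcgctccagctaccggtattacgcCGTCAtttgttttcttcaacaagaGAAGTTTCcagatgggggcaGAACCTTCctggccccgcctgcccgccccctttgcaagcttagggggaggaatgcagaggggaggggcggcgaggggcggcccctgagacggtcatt

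Nr4a1 holds 4 cores of the cyclic AMP response element and Fos holds 2, while this Maff window holds a full TGACGTCA between bases -29 and -22 from the start. The full element was in the windows of 3 of the 19 immediate early genes with a window (Maff, Dusp1 and Ppp1r15a) and of 0 of the 10 heat shock genes, and it was in 1.79% of the 32851 RefSeq windows of mouse genes, each of 300 bases. The core was in windows of 11 of the 19 and 6 of the 10, against 20.8% of all windows. The 8-base heat shock element was in windows of 8 of the 10 heat shock genes and of 2 of the 19 immediate early genes, against 15.1% of all windows. These 8 include Hspe1 and Hspd1, which share a site, and Hspa1a and Hspa1b, whose windows are near-identical. The 13-base extension of this element was in windows of 3 heat shock genes (Hspe1, Hspd1 and Hsph1) and 0 immediate early genes, against 0.603% of all windows. Members are counted as genes with a match in any of their windows (36 windows for 29 genes), whereas the shares of all windows are per window. The AP-1 site TGANTCA was in windows of 2 heat shock genes (Hspa5 and Bag3) and 0 immediate early genes, against 7.81% of all windows, and the CArG box, the site of SRF, was in that of Zfp36, against 1.63%. Hspe1 and Hspd1, which encode the mitochondrial chaperonin pair, face away from each other and share the site below, read on the Hspe1 strand. It and the Hspa5 site after it are printed in capitals throughout.
Site shared by Hspe1 and Hspd1: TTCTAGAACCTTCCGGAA
Hspa5 holds an endoplasmic reticulum stress element (CCAAT and CCACG with 9 bases between them), found in 0.119% of all windows.
Site of Hspa5: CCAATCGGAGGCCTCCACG
The windows of Hspa1a and Hspa1b were identical at 296 of 300 bases (98.7%). They differ by C44T, T47C, T249G and C276T, with the Hspa1a base first and positions counted from the 5′ end of the 300-base window. These matches are letters in a window and do not show that a factor was bound. Sequence outside the windows was not searched, nor were genes without a window, such as Egr1, so a site not found here may lie elsewhere.

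Library totals ran from 18087948 (NM3) to 32579468 (NF1) counts, and levels are given as CPM, the counts scaled to library sizes corrected by TMM. A level of 3 counts, taken as the floor, lay between 0.0880 and 0.160 CPM, which covers counting error only. All 22 alveolar macrophage markers were above the floor in every library. Their summed level ran from 11769.7 to 15447 CPM in hyperoxia libraries and 11386 to 18219 CPM in normoxia libraries, and 5 of them (Fabp1, Cidec, Krt79, Ear1 and Fabp4) passed the test as lower in hyperoxia. Monocyte markers summed to 1133 to 2275 CPM in hyperoxia libraries and 578 to 2328 CPM in normoxia libraries. Fn1 made most of these sums, at 1074 to 2206 CPM in hyperoxia libraries and 543 to 2283 CPM in normoxia libraries. The highest value of any other monocyte marker was 63.6 CPM, of Ccr2 in HF2. Interstitial macrophage markers summed to 31.8 to 123 CPM in hyperoxia libraries and 21.0 to 44.0 CPM in normoxia libraries. The 123 CPM was that of HF2, and the next highest hyperoxia library was HM2, at 58.5 CPM. Erythroid markers summed to 54.0 to 308 CPM in hyperoxia libraries and 101 to 1218 CPM in normoxia libraries. Epithelial markers did not overlap in their sums, at 391 to 475 CPM in hyperoxia libraries and 193 to 367 CPM in normoxia libraries. Most of each sum was Cdh1, at 260 to 394 CPM in hyperoxia libraries and 101 to 273 CPM in normoxia libraries. Summed without Cdh1, the other epithelial markers overlapped between hyperoxia and normoxia. Of the 12 log2 fold changes, 9 were above 0, while DESeq2 called Epcam as lower in hyperoxia. Epcam lay far below Cdh1, at 2.49 to 4.90 CPM in hyperoxia libraries and 4.49 to 7.87 CPM in normoxia libraries. Whether the Cdh1 counts came from epithelial cells was not tested. All 8 endothelial markers were below 0 (median -0.70), with sums of 98.7 to 149 CPM in hyperoxia libraries and 114 to 191 CPM in normoxia libraries. Of 8 neutrophil markers tested, 5 log2 fold changes were above 0 and 3 below, and Mmp8 passed as higher in hyperoxia. Csf3r went the other way, at 10.2 to 19.0 CPM in hyperoxia libraries and 17.7 to 50.3 CPM in normoxia libraries. DESeq2 called Csf3r as lower. The neutrophil list summed to 51.6 to 59.3 CPM in hyperoxia libraries and 41.5 to 73.9 CPM in normoxia libraries, with Ly6g at 0 in every library. Fewer cells of a type and less RNA per cell cannot be told apart in such bulk libraries. In 4 libraries (HF2, HF3, NM3 and NF3) 33158 to 35530 genes had a count, against 26856 to 30173 in the other 7.

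Per length, as CPM per kb of exon averaged over the 11 libraries, the constitutive chaperone genes stood far above the stress-induced ones. Hsp90ab1, the constitutive cytosolic HSP90, had 689.7 CPM per kb and Hspa8, the constitutive cytosolic HSP70, had 661. Their heat-inducible counterparts were lower, with 93.7 CPM per kb for Hsp90aa1, 1.13 for Hspa1b and 0.742 for Hspa1a. Among immediate early genes the highest levels per length were those of Jund (67.8 CPM per kb), the antiproliferative gene Btg1 (60.3 CPM per kb) and Fos (50.6 CPM per kb). The lowest of all 37 were Hspb1 (0.321 CPM per kb) and Egr3 (0.191 CPM per kb). Between the highest and the lowest library, Dnajb1 varied least (1.28-fold in CPM), while Egr3 varied 11.7-fold and Hspa1a 10.3-fold.

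**Figure D1:**
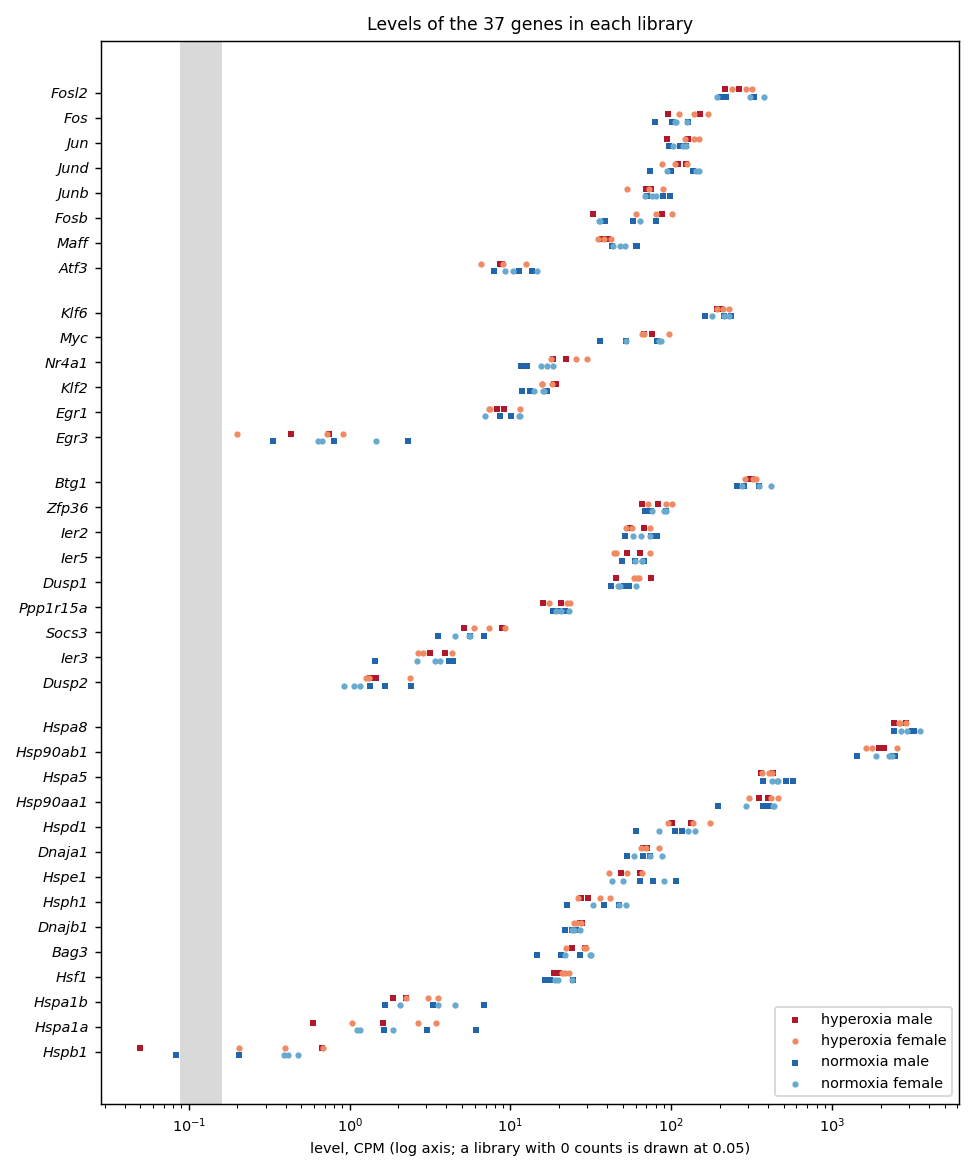
Level of each gene in each library, in CPM on a log axis, by role of the gene; squares are male and circles female libraries, red shades hyperoxia (upper row of each gene) and blue shades normoxia (lower row). The grey band is the range of the 3-count floor, 0.0880 to 0.160 CPM; Hspa8 and Hsp90ab1 stand highest, and Egr3, Hspa1a, Hspa1b and Hspb1 spread most.

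Of the leucine zipper factors of the AP-1 family and its relatives, 8 genes, the median log2 fold change was -0.049, with 3 above 0 and 5 below, and none passed. FOS and FOSB pair with JUN proteins to form AP-1. Fos had 96.0 and 149.9 CPM in HM2 and HM3 and 170.1, 138 and 111 CPM in HF1 to HF3, against 102, 127 and 78.8 CPM in NM1 to NM3 and 124, 108 and 105 CPM in NF1 to NF3. Fosb, a close homologue, had 32.6 and 87.0 CPM in HM2 and HM3 and 79.9, 60.7 and 100.4 CPM in HF1 to HF3, against 38.7, 58.1 and 80.1 CPM in NM1 to NM3 and 36.0, 35.3 and 64.1 CPM in NF1 to NF3. Jun, the usual partner of FOS, had 94.0 and 127 CPM in HM2 and HM3 and 149, 137 and 121 CPM in HF1 to HF3, against 97.0, 114 and 123 CPM in NM1 to NM3 and 119, 102 and 124 CPM in NF1 to NF3. Hyperoxia and normoxia libraries overlapped for all 3 genes, with the highest Fos and Jun libraries in HF1 and the lowest Fosb library in HM2. Their log2 fold changes were 0.29 ± 0.19 for Fos, 0.43 ± 0.26 for Fosb and 0.11 ± 0.16 for Jun (SE), with 95% intervals of -0.12 to 0.69, -0.13 to 0.98 and -0.23 to 0.46.

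Jund, the JUN protein that is also present in unstimulated cells, had 124 and 109.9 CPM in HM2 and HM3 and 125, 105 and 87.6 CPM in HF1 to HF3, against 99.5, 137 and 73.7 CPM in NM1 to NM3 and 142, 148 and 94.1 CPM in NF1 to NF3. Atf3, a stress-induced repressor, had 8.63 and 8.90 CPM in HM2 and HM3 and 12.6, 8.95 and 6.56 CPM in HF1 to HF3, against 13.6, 11.3 and 7.95 CPM in NM1 to NM3 and 9.19, 10.3 and 14.7 CPM in NF1 to NF3. These overlapped as well, and the log2 fold changes were -0.052 ± 0.20 for Jund and -0.30 ± 0.20 for Atf3 (SE). The range of Fosl2 and Junb over all libraries was 53.2 to 374 CPM, with log2 fold changes of -0.046 for Fosl2 and -0.16 for Junb.

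Maff encodes a small Maf protein, which has no activation domain and binds antioxidant response elements with partners such as NRF2. Maff had 40.6 and 36.9 CPM in HM2 and HM3 and 41.9, 38.3 and 34.8 CPM in HF1 to HF3, against 60.4, 60.8 and 42.5 CPM in NM1 to NM3 and 51.3, 43.6 and 48.0 CPM in NF1 to NF3. All 5 hyperoxia libraries lay below all 6 normoxia libraries, although HF1, the highest in hyperoxia, was close to NM3, the lowest in normoxia. Maff was the only gene of the 37 separated in this way (2.7%), as were 0.396% of all genes tested. It averaged 38.5 ± 2.83 CPM in hyperoxia and 51.1 ± 8.02 CPM in normoxia (SD, n = 5 and 6). The log2 fold change was -0.40 ± 0.15 (SE), with a 95% interval of -0.73 to -0.079, and the adjusted p was 0.396 by edgeR's quasi-likelihood test, against 0.0466 by DESeq2. When CPM were computed from library totals without TMM, the hyperoxia and normoxia libraries of Maff overlapped. Over the alternatives of scaling, filter, fit and libraries the adjusted p of Maff ran from 0.0466 to 1.0. Of the 22 alveolar macrophage markers, 20 also had a log2 fold change below 0 (median -0.27), and their part and that of the epithelial markers in the value of Maff was not tested.

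Zinc finger factors, the nuclear receptor gene Nr4a1 and Myc, 6 genes, had a median log2 fold change of 0.097, with 3 above 0 and 3 below. NR4A1, an orphan nuclear receptor induced in macrophages by inflammatory signals, is also needed for patrolling monocytes. Nr4a1 had 18.2 and 22.1 CPM in HM2 and HM3 and 25.5, 30.0 and 17.8 CPM in HF1 to HF3, against 11.7, 12.7 and 12.3 CPM in NM1 to NM3 and 18.3, 15.5 and 17.0 CPM in NF1 to NF3. HF1 and HF2 were the highest libraries and NM1 to NM3 the lowest. Both hyperoxia male libraries lay above the normoxia males, whereas among females HF3 lay inside the normoxia range and the groups overlapped. Nr4a1 averaged 22.7 ± 5.13 CPM in hyperoxia and 14.6 ± 2.72 CPM in normoxia (SD, n = 5 and 6).

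The log2 fold change of Nr4a1 was 0.62 ± 0.16 (SE), with a 95% interval of 0.30 to 0.95, and its adjusted p of 0.0841 by edgeR's quasi-likelihood test missed the threshold of 0.05. It was the lowest adjusted p among the 37 genes. The adjusted p was 0.0122 by DESeq2, 0.0226 with a term for the 4 libraries with most genes detected, 0.0356 without HF3 and 0.0121 with library totals in place of TMM. Over all alternatives it ran from 0.0121 to 0.589, the highest without HM3. Within those 4 libraries the log2 ratio of the means was 0.71, and within the other 7 it was 0.59. All 8 monocyte markers (median log2 fold change 0.73) and all 8 interstitial macrophage markers tested (median 1.08) were also above 0, with the sums given above. HF2, the highest Nr4a1 library, also had the highest interstitial macrophage sum. The epithelial sums were higher in all hyperoxia libraries, with most of each sum from Cdh1, and without Cdh1 they overlapped. The part of all these markers in the value of Nr4a1 was not tested.

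KLF2 restrains inflammatory activation of macrophages and responds to shear stress in endothelium. Klf2 had 19.2 and 18.6 CPM in HM2 and HM3 and 15.7, 18.1 and 15.7 CPM in HF1 to HF3, against 16.9, 13.3 and 11.7 CPM in NM1 to NM3 and 16.1, 15.8 and 14.1 CPM in NF1 to NF3. Both hyperoxia male libraries were above the normoxia males, while the female groups overlapped. The log2 fold change of Klf2 was 0.27 ± 0.14 (SE), with an adjusted p of 0.717 by edgeR's quasi-likelihood test. Klf6, a related factor that promotes inflammatory gene expression in macrophages, had 193 and 205 CPM in HM2 and HM3 and 209, 229.7 and 192 CPM in HF1 to HF3, against 213, 233 and 162 CPM in NM1 to NM3 and 212, 228 and 179 CPM in NF1 to NF3. These overlapped throughout, with a log2 fold change of -0.00029 ± 0.17 (SE).

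Myc, a growth factor-induced gene of proliferating cells, had 75.4 and 67.9 CPM in HM2 and HM3 and 97.0, 68.0 and 65.5 CPM in HF1 to HF3, against 52.5, 81.2 and 35.9 CPM in NM1 to NM3 and 84.0, 86.7 and 52.5 CPM in NF1 to NF3. The lowest library was NM3 and the highest HF1, and the groups overlapped, with a log2 fold change of 0.19 ± 0.22 (SE). Egr3, an early growth response factor, had 0.434 and 0.748 CPM in HM2 and HM3 and 0.199, 0.909 and 0.721 CPM in HF1 to HF3, against 0.801, 0.333 and 2.32 CPM in NM1 to NM3 and 0.636, 0.676 and 1.47 CPM in NF1 to NF3. NM3 and NF3 were the highest Egr3 libraries and HF1 the lowest, and the log2 fold change of -0.77 ± 0.56 (SE) had a 95% interval of -1.95 to 0.41. Egr1, its relative, lay between 6.90 and 11.5 CPM over all libraries, with a log2 fold change of -0.16 ± 0.18 (SE).

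Feedback regulators and other early products, 9 genes, had a median log2 fold change of -0.021, with 4 above 0 and 5 below. SOCS3 blocks JAK and STAT3 signalling from cytokine receptors of the gp130 type. Socs3 had 5.16 and 8.87 CPM in HM2 and HM3 and 7.40, 9.24 and 5.97 CPM in HF1 to HF3, against 6.88, 5.62 and 3.56 CPM in NM1 to NM3 and 5.53, 5.62 and 4.53 CPM in NF1 to NF3. All 3 hyperoxia female libraries were above the normoxia females, while in males HM2 lay inside the normoxia range. The log2 fold change of Socs3 was 0.46 ± 0.21 (SE), its 95% interval 0.0055 to 0.91, and the adjusted p 0.60 by edgeR's quasi-likelihood test.

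DUSP1 dephosphorylates p38 and JNK kinases. Dusp1 had 45.6 and 74.6 CPM in HM2 and HM3 and 58.3, 63.0 and 61.1 CPM in HF1 to HF3, against 50.4, 42.3 and 54.6 CPM in NM1 to NM3 and 46.8, 48.2 and 60.1 CPM in NF1 to NF3. HM3 was the highest Dusp1 library, and the groups overlapped, with a log2 fold change of 0.26 ± 0.17 (SE) and a 95% interval of -0.087 to 0.61. Zfp36, which encodes tristetraprolin, had 66.1 and 82.9 CPM in HM2 and HM3 and 92.1, 101 and 71.7 CPM in HF1 to HF3, against 68.4, 92.7 and 74.9 CPM in NM1 to NM3 and 89.8, 92.2 and 75.9 CPM in NF1 to NF3. Its groups overlapped, with a log2 fold change of -0.021 ± 0.17 (SE).

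Ier2, a small nuclear protein gene of the early response, had 67.3 and 55.7 CPM in HM2 and HM3 and 73.4, 56.9 and 52.2 CPM in HF1 to HF3, against 81.3, 74.4 and 51.8 CPM in NM1 to NM3 and 73.7, 64.6 and 58.1 CPM in NF1 to NF3. Btg1, which is high in resting cells, had 317 and 309 CPM in HM2 and HM3 and 320.4, 334 and 287 CPM in HF1 to HF3, against 283, 352 and 255 CPM in NM1 to NM3 and 349, 418 and 275 CPM in NF1 to NF3. Neither separated hyperoxia from normoxia, and the log2 fold changes were -0.14 ± 0.17 for Ier2 and -0.034 ± 0.18 for Btg1 (SE). The other 4 genes, Ier3, Ier5, Dusp2 and Ppp1r15a (a regulatory subunit of the phosphatase that restores translation after stress), spanned 0.922 to 73.6 CPM, with log2 fold changes between -0.12 and 0.15.

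**Figure D2:**
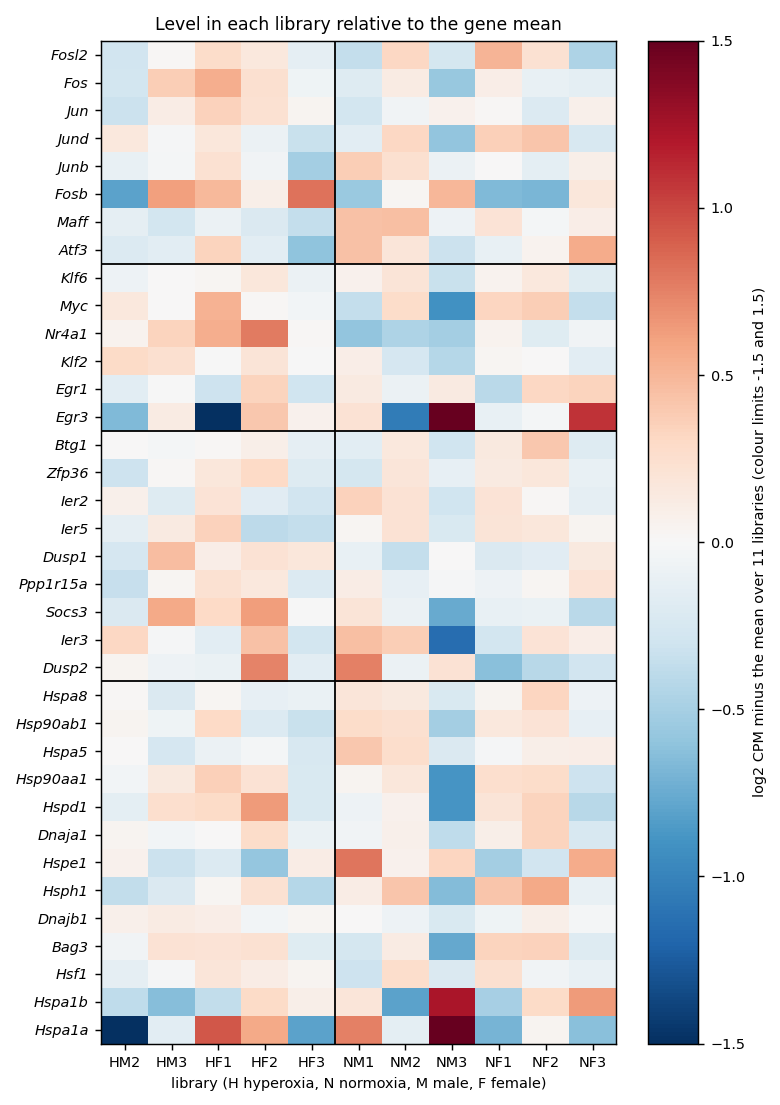
Level of each gene in each library as log2 CPM minus the mean of that gene over the 11 libraries, with hyperoxia libraries left of the black line and normoxia libraries right of it; Hspb1, with a library at 0 counts, is left out. NM3 is the lowest library, drawn in blue, for 17 of the 37 genes, a share that was not counted over all genes.

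The 14 heat shock genes had a median log2 fold change of -0.032, with 7 above 0 and 7 below. HSPA1A and HSPA1B are the inducible HSP70 proteins, encoded by neighbouring genes with near-identical promoters, shown above. Hspa1a had 0.591 and 1.61 CPM in HM2 and HM3 and 3.45, 2.67 and 1.03 CPM in HF1 to HF3, against 3.04, 1.62 and 6.09 CPM in NM1 to NM3 and 1.11, 1.85 and 1.16 CPM in NF1 to NF3. Hspa1b had 2.25 and 1.87 CPM in HM2 and HM3 and 2.26, 3.55 and 3.09 CPM in HF1 to HF3, against 3.31, 1.67 and 6.81 CPM in NM1 to NM3 and 2.07, 3.56 and 4.53 CPM in NF1 to NF3. NM3 was the highest library for both genes, and HM2 was the lowest for Hspa1a. Hyperoxia and normoxia overlapped over both sexes, with log2 fold changes of -0.45 ± 0.41 for Hspa1a and -0.56 ± 0.33 for Hspa1b (SE) and 95% intervals of -1.31 to 0.41 and -1.25 to 0.14. Their transcripts shared 58.8% of the 50-base words of Hspa1a, so their counts may be split between them and are uncertain as separate values. With their counts added into 1 row the log2 fold change was -0.54 ± 0.29 (SE).

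HSPA8 and HSP90AB1 are made in unstressed cells. Hspa8, which folds new proteins and uncoats clathrin vesicles, had 2869.9 and 2438 CPM in HM2 and HM3 and 2873, 2588 and 2644 CPM in HF1 to HF3, against 3206, 3122 and 2409.5 CPM in NM1 to NM3 and 2918, 3535 and 2681 CPM in NF1 to NF3. Hsp90ab1, which stabilizes kinases and steroid receptors, had 2095 and 1951 CPM in HM2 and HM3 and 2512, 1770.5 and 1619 CPM in HF1 to HF3, against 2473, 2399 and 1436 CPM in NM1 to NM3 and 2269, 2351 and 1878 CPM in NF1 to NF3. NM3 was the lowest library for both, and hyperoxia and normoxia libraries overlapped for both. The log2 fold changes were -0.15 ± 0.19 for Hspa8 and -0.097 ± 0.21 for Hsp90ab1 (SE), with 95% intervals of -0.56 to 0.25 and -0.55 to 0.35. For Hsp90ab1, the 4 libraries with most genes detected (HF2, HF3, NM3 and NF3) were all below the other 7. Every other immediate early and heat shock gene followed here overlapped between these libraries. How many of all genes tested were separated in this way was not counted, so the split may not be particular to Hsp90ab1.

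HSPA5, or BiP, is the HSP70 of the endoplasmic reticulum and a target of the unfolded protein response. Hspa5 had 431 and 362 CPM in HM2 and HM3 and 405, 419.9 and 364 CPM in HF1 to HF3, against 569.6, 514 and 369.8 CPM in NM1 to NM3 and 424, 457 and 461 CPM in NF1 to NF3. The 3 hyperoxia female libraries were below the normoxia females, while NM3 lay below HM2 among males. Its log2 fold change was -0.23 ± 0.18 (SE), with a 95% interval of -0.61 to 0.15 and an adjusted p of 0.892 by edgeR's quasi-likelihood test.

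Hspe1, the mitochondrial co-chaperonin, had 63.7 and 48.9 CPM in HM2 and HM3 and 53.0, 40.8 and 65.9 CPM in HF1 to HF3, against 107, 64.1 and 76.6 CPM in NM1 to NM3 and 42.8, 50.3 and 90.0 CPM in NF1 to NF3. Hsph1, a nucleotide exchange factor for HSP70, had 27.5 and 30.5 CPM in HM2 and HM3 and 36.2, 41.6 and 26.3 CPM in HF1 to HF3, against 38.4, 47.4 and 22.5 CPM in NM1 to NM3 and 47.1, 52.3 and 32.6 CPM in NF1 to NF3. Hyperoxia males were below normoxia males for Hspe1, while its female groups overlapped, and Hsph1 overlapped in both sexes. The log2 fold changes were -0.37 ± 0.22 for Hspe1 and -0.33 ± 0.20 for Hsph1 (SE). Hspd1, which shares the bidirectional promoter region and the site printed above with Hspe1, had a log2 fold change of 0.26 ± 0.22 (SE), of the opposite sign to Hspe1. Annotated exons of both genes lie in this stretch on opposite strands, and reads there cannot be told apart if the counting ignored strand, which the sources used here do not state. Counts on 5 pseudogenes of Hspd1 came to 1.26% of its own, and on 6 pseudogenes of Hspe1 to 0.0621%.

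Hspb1, the small heat shock protein, was at the edge of detection with 99 counts over all libraries. Hspb1 had 0.670 and 0 CPM in HM2 and HM3 and 0.398, 0.205 and 0.687 CPM in HF1 to HF3, against 0.107, 0.0833 and 0.206 CPM in NM1 to NM3 and 0.413, 0.391 and 0.474 CPM in NF1 to NF3. The 0 counts of HM3 allow up to 0.112 CPM, and the log2 fold change of 0.66 ± 0.80 (SE) had a 95% interval of -1.02 to 2.35, so no difference was detectable at this depth. The remaining 6 genes (Hsp90aa1, Hspd1, Dnaja1, Dnajb1, Bag3 and Hsf1) lay between 14.6 and 461 CPM with log2 fold changes of 0.033 to 0.26. DNAJA1 and DNAJB1 deliver clients to HSP70, and BAG3 releases them for selective autophagy. Hsf1 itself averaged 20.9 ± 1.68 CPM in hyperoxia and 20.2 ± 3.36 CPM in normoxia (SD, n = 5 and 6).

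**Figure D3:**
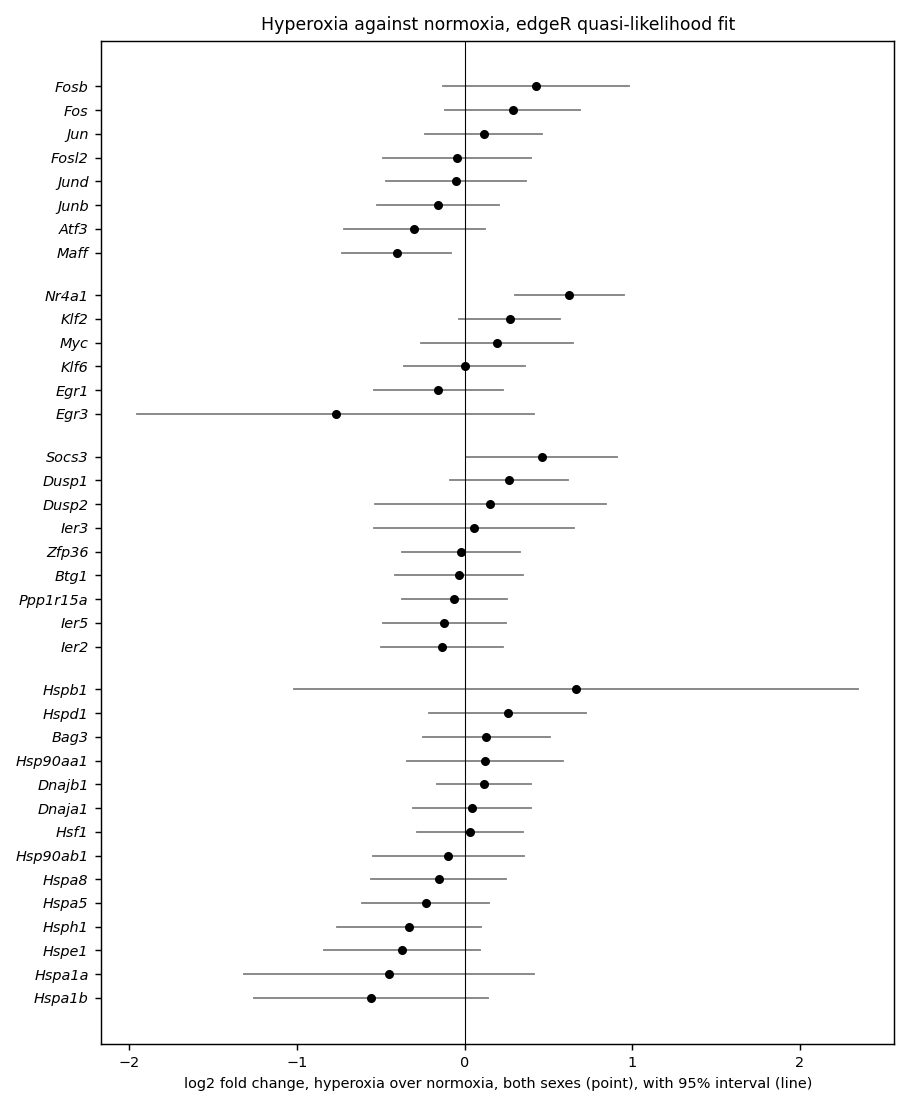
Log2 fold change of each gene, hyperoxia over normoxia over both sexes, with its 95% interval from edgeR's quasi-likelihood fit, by role. The intervals of Nr4a1, Socs3 and Maff exclude 0 before adjustment, and those of Egr3, Hspa1a, Hspa1b and Hspb1 are the widest.

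The precision differed between the genes. The SE of the log2 fold change was 0.13 to 0.80, with a median of 0.19, and for 33 of the 37 genes the 95% interval lay within 1 log2 unit of 0 on both sides. For Egr3, Hspa1a, Hspa1b and Hspb1 it did not, and a change of 1 log2 unit or more lay inside the interval of these 4 genes. Summed over the 14 heat shock genes, the level was 5258 to 6631 CPM in hyperoxia libraries and 4689 to 7194 CPM in normoxia libraries, of which Hspa8 and Hsp90ab1 made the most. Summed over the 8 AP-1 and related genes, it was 681 to 986 CPM in hyperoxia libraries and 696 to 932 CPM in normoxia libraries. Both pairs of ranges overlap. With library totals in place of TMM, 3 of the 37 genes (Klf2, Nr4a1 and Dnajb1) had all hyperoxia libraries above all normoxia libraries, as did 4.28% of all genes, and with TMM 0 of the 37 did, against 1.76%.

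In males alone, 0 of the 37 genes passed the test, against 0.0401% of all genes, and 3 had an unadjusted p under 0.05 (8.11%), against 5.5% of all genes. DESeq2 called 0 of 36, against 0.611% of all genes. The 3 were Nr4a1, with a log2 fold change of 0.72 ± 0.23, Hspa1a, with -1.69 ± 0.64, and Maff, with -0.49 ± 0.23 (SE). Klf2, Nr4a1 and Dnajb1 had both hyperoxia male libraries above the 3 normoxia males, 3 of 37 (8.11%) against 8.62% of all genes. Maff, Hspa1a and Hspe1 had both below, 3 of 37 against 8.49%.

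In females alone, 0 of the 37 passed, against 0.0401% of all genes, and 2 had an unadjusted p under 0.05 (5.41%), against 4.53% of all genes. DESeq2 called 0 of 36, against 0.698%. The 2 were Nr4a1, with a log2 fold change of 0.53 ± 0.21, and Fosb, with 0.83 ± 0.35 (SE). Dusp2 and Socs3 had all 3 hyperoxia female libraries above the normoxia females (5.41%, against 6.23% of all genes), and Maff and Hspa5 had all 3 below (5.41%, against 4.01%). Dusp2 encodes a nuclear phosphatase of ERK and p38, and stood at 1.33, 2.38 and 1.27 CPM in HF1 to HF3, against 0.922, 1.07 and 1.16 CPM in NF1 to NF3.

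**Figure D4:**
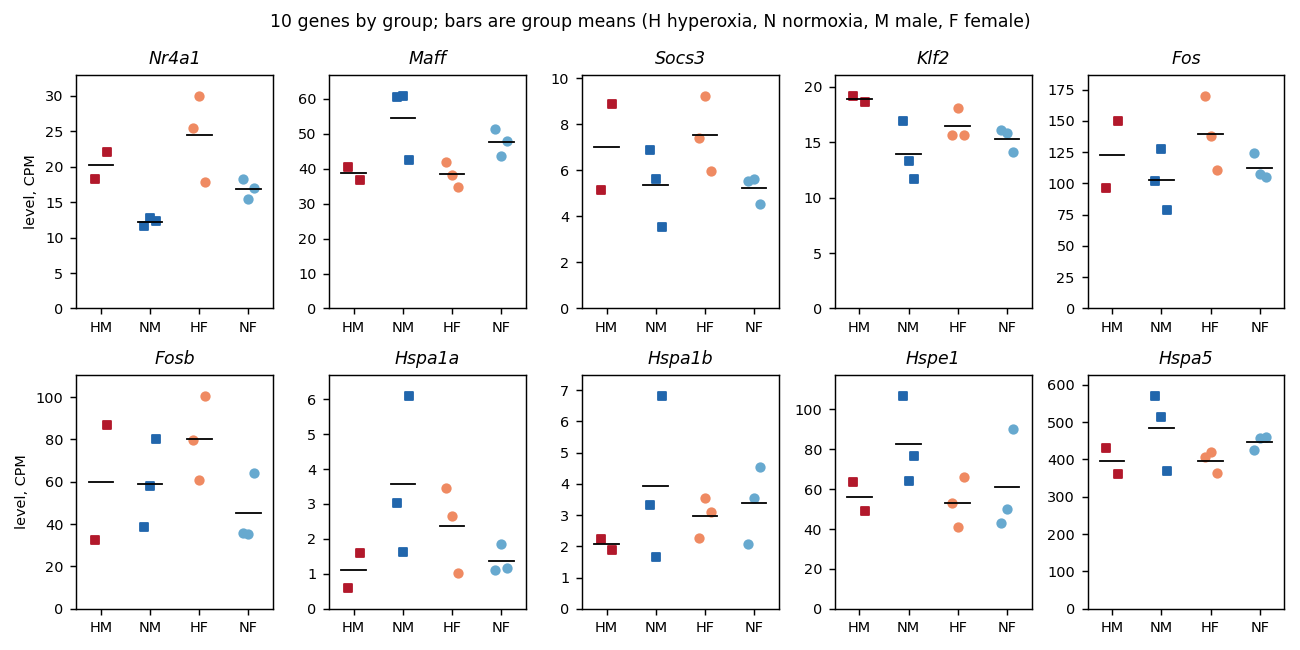
Level in CPM (vertical axis, from 0) of 10 genes in each library of the groups HM, NM, HF and NF; points are libraries, squares male and circles female, and bars are group means. Nr4a1 is higher in HM than NM without overlap and overlaps in females, Maff is lower in hyperoxia in both sexes, and Hspa1a is lower in HM than NM without overlap and overlaps in females.

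The difference between the female and the male response was tested as an interaction. It passed for 0 of the 37 genes, against 0% of all genes, with 1 of the 37 (2.7%) at an unadjusted p under 0.05, against 1.67% of all genes, and DESeq2 called 0 of the 37, against 0.0151%. That gene was Hspa1a, with a female minus male difference in log2 fold change of 2.49 ± 0.83 (SE) and an adjusted p of 1.0 by edgeR's quasi-likelihood test. Its response was 0.79 ± 0.54 in females and -1.69 ± 0.64 in males (SE), and Hspa1b had -0.19 ± 0.43 in females and -0.93 ± 0.50 in males. NM3, the library with the highest Hspa1a, is among the 3 normoxia males. For Nr4a1 the difference was -0.19 ± 0.31 (SE) and for Maff it was 0.18 ± 0.31 (SE).

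Between the sexes over both oxygen groups, 0 of the 37 genes passed, against 0.0251% of all genes, and DESeq2 called 0, against 0.176%. At an unadjusted p under 0.05 there was 1 (2.7%), against 3.27% of all genes. It was Nr4a1, with a female minus male log2 difference of 0.37 ± 0.16 (SE) and an adjusted p of 0.994 by edgeR's quasi-likelihood test. In normoxia alone, Nr4a1 lay at 18.3, 15.5 and 17.0 CPM in females, all above the 11.7, 12.7 and 12.3 CPM of males. How many of the 37 genes or of all genes were separated in this way was not counted. The female minus male log2 difference was above 0 for 27 of the 37 genes (73%) and for 51.6% of all genes, with medians of 0.052 over the 37 and 0.011 over all genes. NM3, the lowest library for 17 of the 37 genes, is a male library. Its share of lowest values over all genes was not counted, and its part in these differences was not tested.

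Related genes that are not among the 37 were read from 4 further lists. Of 25 other immediate early genes, 0 passed the test, 9 log2 fold changes were above 0 and 16 below (45.9% of all genes were above), and the median was -0.060. Ccn1, a matricellular protein gene and a target of SRF and YAP, had -0.68 ± 0.28 (SE) and was the only one of the 25 with an unadjusted p under 0.05, against 8.13% of all genes. Of 15 genes upstream of them, such as MAP kinases and the factors ELK1 and SRF, 0 passed, and the median was 0.026, with 10 above 0 and 5 below. None had an unadjusted p under 0.05.

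Of 34 other heat shock and cytosolic chaperone genes, 0 passed, 16 were above 0 and 18 below, and the median was -0.0059. Hspb6, another small heat shock protein gene, had 0.47 ± 0.19 (SE), and Hsf2, a heat shock factor that acts with HSF1, had 0.32 ± 0.14 (SE), the 2 of 34 with an unadjusted p under 0.05, against the same 8.13%. Of 24 genes of endoplasmic reticulum stress and the unfolded protein response, 0 passed, 8 were above 0 and 16 below, and the median was -0.16, beside -0.031 over all genes tested. DESeq2 called 0 in each of the 4 lists.

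In the last list, 6 of the 24 genes had an unadjusted p under 0.05 with a lower mean in hyperoxia, against 3.33% of all genes, and 0 with a higher one. The list was chosen with earlier results of these data known, so its share beside that of all genes is not a test of the list. They were Ddit3, Chac1, Asns, Dnajb9, Herpud1 and Atf4. ATF4 is the transcription factor of the integrated stress response, DDIT3, or CHOP, is a factor downstream of it, and CHAC1 and ASNS are among its targets. Ddit3 averaged 6.81 ± 1.45 CPM in hyperoxia and 10.3 ± 2.20 CPM in normoxia (SD, n = 5 and 6), a log2 fold change of -0.62 ± 0.19 (SE) with an adjusted p of 0.188 by edgeR's quasi-likelihood test. Atf4 averaged 149 ± 13.7 CPM in hyperoxia and 195 ± 31.5 CPM in normoxia, with a log2 fold change of -0.38 ± 0.17 (SE) and an adjusted p of 0.587 by the same test. Hspa5, described above, lies under the same pathway. Ppp1r15a, a further target of ATF4 among the 37, had -0.061 ± 0.15 (SE).

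**Figure D5:**
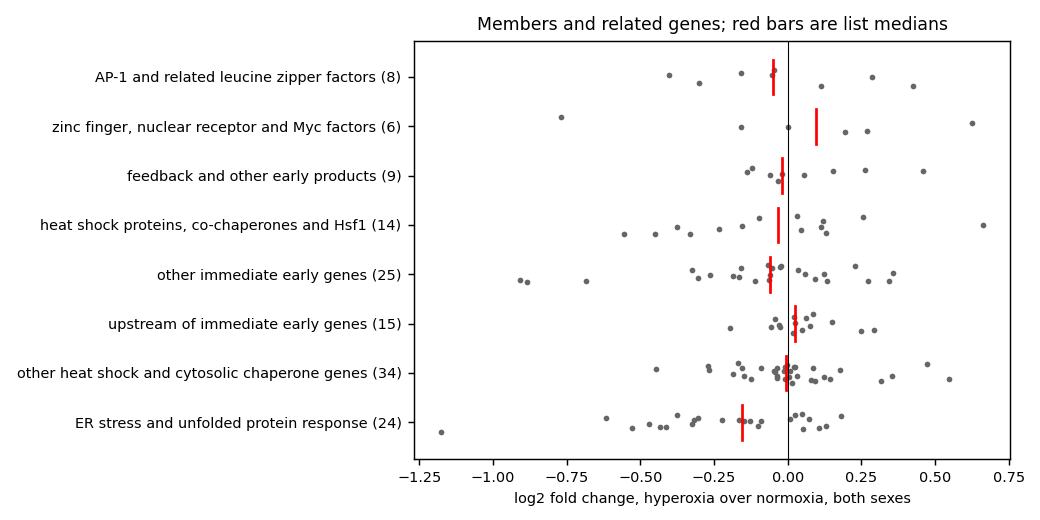
Log2 fold change, hyperoxia over normoxia over both sexes, of each gene tested in the 4 roles of the 37 genes and in 4 lists of related genes, with the number of genes in parentheses. Red bars are list medians, which run from -0.16 for endoplasmic reticulum stress genes to 0.097 for zinc finger, nuclear receptor and Myc factors.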

How the data were processed

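Bulk RNA-seq was run on sorted alveolar macrophages, giving 11 libraries. The authors deposited a single table of unnormalized whole-number counts, with Ensembl genes in rows and libraries in columns, per the file headers. The labels' protocols name a SMART-Seq kit for low input and also a Pico SMART adapter with molecular identifiers. Which library kit was used is unclear. Per these protocols, molecular identifiers in the first 8 nt were trimmed together with the adapter. Certain libraries were cleared of fragments under 250 bp and resequenced, which ones being unclear. Whether reads were deduplicated or counted by strand, what each tool did and which annotation was used is "not given in the sources used here", so reads of overlapping or near-identical genes may be split. The submitters' processing notes name mm39, DESeq2 1.42, R 4.3.2, Salmon 1.10.1, STAR 2.7.9 and Trim Galore 0.6.7.

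Symbols came from a supplied name table (51884 of 57180 identifiers, 90.7%), exon lengths from GENCODE M21. Tests used edgeR 4.0.16 (R 4.3.3). Its expression filter kept genes with about 10 counts in libraries of the smallest group size and 15 in total, and TMM scaled the libraries. The robust quasi-likelihood model had a mean for each of the 4 groups, with 5 contrasts: hyperoxia minus normoxia over both sexes, in males and in females, female minus male, and the interaction. P-values were adjusted by Benjamini-Hochberg over the genes tested, with a threshold of 0.05. SE and 95% intervals derive from the quasi-likelihood test. The fit was tested on simulated counts. No pair of replicates agreed within sampling noise (smallest chi-square per gene 20.9).

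Values are given for every library for 24 genes: in each role, the 3 with the smallest p for hyperoxia over both sexes and the 3 with the highest counts per kilobase, any gene that passed a test, and genes that varied 10-fold or more. Alternatives were DESeq2 1.42.0, its size factors, no filter, a fit that is not robust, a replicate block, the 4 libraries with most genes left out or given a term, Hspa1a and Hspa1b added, and each library left out. The genes and lists were chosen with earlier results of these data known.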

Additional observations from a re-analysis of the deposited data

Results flagged for a closer look

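Dusp2, the gene of a nuclear phosphatase of ERK and p38, stood apart in 1 library. Its level was 2.38 CPM in HF2, against 1.46 CPM in the nearest other hyperoxia library, and the gap was 0.830 of the whole range of the 5 hyperoxia libraries. It was the only value flagged among 74 sets of libraries examined, and chance flags about 1 in 20 of such sets.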

How the results depend on the processing

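Under the 19 alternatives of the fit, the count of the 37 genes called for hyperoxia over both sexes, 0 by edgeR, was 2 of 36 with DESeq2 (Nr4a1 and Maff), 1 with a term for the 4 libraries with most genes detected, 1 with library totals and 0 to 1 with each library left out, the 1 being Nr4a1 without HF3. The library totals setting was chosen after the data were seen. It moved the median log2 fold change of all genes to 0.12, against -0.031 with TMM. In males, in females, between the sexes and for the interaction, 0 of the 37 were called in all alternatives.

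Over all genes the count for both sexes, 141, was 446 with DESeq2, 302 with no filter, 256 with the replicate block, 23 without the 4 libraries, 501 with their term, 490 with library totals, and 36 to 195 with each library left out (48 without HM2, 36 without HM3, 63 without HF2, 65 without NF1, 80 without NF2). The count in males, 8, was 91 with DESeq2, 83 with no filter, 21 with the block, 16 without the 4, 51 with their term, 15 with library totals and 0 to 19 with each library left out. The count in females, 8, was 96 with DESeq2, 96 with no filter, 23 with the block, 2 without the 4, 21 with their term, 18 with library totals and 0 to 24 with each library left out. The interaction count, 0, was 3 with DESeq2, 6 with no filter, 1 with a fit that is not robust, 1 without the 4 and 0 to 1 with each library left out. The female minus male count, 5, was 35 with DESeq2, 62 with no filter, 9 with the block, 11 with the term and 5 to 14 with each library left out. The cause of these moves was not tested.

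Log2 fold changes of 17 of the 37 genes changed sign under some alternative, and these lay between -0.15 and 0.15 in the reported fit except Hspa1a (-0.45) and Hspb1 (0.66). With library totals they were 0.11 for Fosl2, 0.11 for Jund, 0.16 for Klf6, 0.021 for Ier2, 0.028 for Ier5, 0.13 for Zfp36, 0.13 for Btg1, 0.089 for Ppp1r15a, 0.0088 for Hspa8 and 0.063 for Hsp90ab1. With the replicate block they were 0.010 for Fosl2, 0.012 for Jund and 0.023 for Klf6. Without the 4 libraries they were -0.20 for Ier3, 0.023 for Ier5, 0.053 for Ppp1r15a, 0.075 for Hspa1a and -0.12 for Dnaja1, and with their term 0.012 for Klf6. With each library left out they ran over -0.16 to 0.071 for Fosl2, -0.15 to 0.076 for Jund, -0.078 to 0.056 for Klf6, -0.14 to 0.16 for Ier3, -0.099 to 0.066 for Zfp36, -0.024 to 0.25 for Dusp2, -0.11 to 0.035 for Btg1, -0.15 to 0.039 for Ppp1r15a, -0.020 to 0.22 for Hsp90aa1, -2.41 to 1.17 for Hspb1, -0.025 to 0.096 for Dnaja1 and -0.041 to 0.13 for Hsf1. The value of -2.41 for Hspb1 leaves HM3, at 0 counts, as the only hyperoxia male library, and is no bound. The other causes were not tested.

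The labels do not say that a replicate number marks a shared litter, batch or day, and the numbers were not treated as a pairing, since not every pair of libraries with the same number had a correlation of deviations from the group means over 0.1. HM holds 2 libraries, whose deviations mirror each other, so its pairs add no separate information. Among the other 3 groups, 7 of 9 pairs with the same number were over 0.1 (-0.17 to 0.57, median 0.31), all 3 pairs of number 1 and of number 3 among them, against 6 of 18 pairs with other numbers (-0.61 to 0.51, median -0.21). HF3, NM3 and NF3 are also among the 4 libraries with most genes detected, whereas HM3 is not. Whether the numbers pair libraries in part was not settled by these correlations. Over all 11 libraries, 5 correlated best with their own number. With the block, 0 of the 37 genes were called. Hspb1 had the fewest counts of the 37 genes, 99 in all, and its 95% interval was the widest.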
